A study of Mus musculus with 18 samples.

Results

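The 10 genes described here are 4 aldehyde oxidases (Aox1, Aox2, Aox3 and Aox4) and 6 aldehyde dehydrogenases (Aldh3a2, Aldh3b1, Aldh1a1, Aldh2, Aldh9a1 and Aldh16a1) of the mouse. They were taken by symbol from a table of 22708 genes measured in eosinophils of the small intestine. RNA of sorted eosinophils was sequenced in bulk from C57/BL6 mice, as the strain is labelled (C57BL/6 in the paper). The mice were of 3 labelled genotypes, WT, Ahr-/- and Ahrr-/-, with 6 samples of each, 3 from males and 3 from females. Ahr encodes the aryl hydrocarbon receptor (AHR), a transcription factor that is switched on by its ligands, and Ahrr encodes the AHR repressor, itself a target gene of AHR. According to the paper's methods, the mice were matched for sex and age, though Ahrr-/- mice are not described there, and cells were enriched with anti-CD11b beads before sorting. The gate was CD11b+MHC-II-SiglecF+SSChi, and RNA was sequenced only where its integrity number was at least 7. Ahr-/- and WT mice were neither littermates nor cohoused, so that genotype cannot be told apart from litter and cage. The comparisons ask which of these enzymes differ in their transcript when AHR or its repressor is missing.

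Aldehydes arise in cells from fats, amines, alcohols, vitamin A and foreign compounds, and most are reactive. Aldehyde dehydrogenases oxidize them to acids with NAD or NADP. Aldehyde oxidases do so with oxygen, through a molybdenum cofactor, iron-sulfur centers and FAD, and they also oxidize ring compounds that contain nitrogen. In mice the oxidase genes lie side by side and differ in the tissues that use them, and Aox1 and Aox3 are known best from liver.

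Expression was deposited as variance-stabilized values (log2 scale), in which a count of 0 is 5.02, the lowest value. Turning the transformation back gave each gene's count and its normalized count, which is the count divided by the size factor of the sample. Samples held 3842977 to 8149200 counts in WT, 6581818 to 10284124 in Ahr-/-, and 8788867 to 12046933 where labelled Ahrr-/-. The F3 samples of WT and Ahr-/- stood apart, with 20244 and 19694 genes detected, against 15146 to 17236 in the other samples. The sorted cells carried the eosinophil markers Siglecf (837 to 3113 normalized counts over the 18 samples), Ccr3 (5286 to 15551) and Il5ra (992 to 3206). Of the granule protein genes, Epx had 3.03 to 23.6 normalized counts and Ear6 a count of 0 in 16 samples. Prg2, which encodes major basic protein, was higher in Ahr-/-, with a mean of 9.33 on the log2 scale against 7.03 in WT (WT minus Ahr-/- -2.30, SE 0.17, limma adjusted p = 3.47e-07) and without overlap. Of the 12 eosinophil markers 7 were tested, and limma called 2 between WT and Ahr-/-, Prg2 among them (both higher in Ahr-/-), 0 between WT and the samples labelled Ahrr-/- (0 at an unadjusted p under 0.05, and 0 by limma voom), and 4 between Ahr-/- and the samples labelled Ahrr-/- (all higher in Ahr-/-).

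The targeted genes were examined first. Ahr ranged from 13.40 to 14.40 in WT (median 13.76) and from 14.15 to 14.67 in Ahr-/- (median 14.55) on the log2 scale. WT minus Ahr-/- was -0.61 (SE 0.19, limma adjusted p = 0.0557), so the label of the Ahr knockout did not go with less of its transcript. Ahrr ranged from 9.79 to 10.39 in WT (median 10.12), from 5.02 to 5.79 in Ahr-/- (median 5.25) and from 9.95 to 10.93 in the samples labelled Ahrr-/- (median 10.37). WT minus Ahrr-/- was -0.28 for Ahrr (SE 0.18, limma adjusted p = 0.683), and here too the label of a knockout did not go with less of its transcript. Counts over a whole gene do not show a deletion whose place in the gene is not known here, and the genotypes are used as labelled. Of the AHR targets, Cyp1b1 fell from a mean of 9.47 in WT to 5.40 in Ahr-/- (difference 4.07, SE 0.24, limma adjusted p = 1.93e-08). Tiparp (difference 2.60, SE 0.18, adjusted p = 1.56e-07) and Nqo1 (1.82, SE 0.12, adjusted p = 1.27e-07) were also higher in WT, by limma. Cyp1a1, another AHR target, did not follow them: it had a count of 0 in all 6 WT samples, 10 counts in Ahr-/- and 58 in the samples labelled Ahrr-/-, and a mean below the minimum for a test.

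Aox1, Aox3, Aox4 and Aox2 follow each other in this order on the plus strand of chromosome 1, within 349.5 kb by RefSeq on GRCm38. Aox4 lies at chr1:58210397-58268597 with 35 exons and Aox2 at chr1:58278326-58380259 with 36 exons, and the Aox2 gene starts beyond the last exon of Aox4. Because both transcripts were nearly absent from Ahr-/- samples, the 250 bases before the start of each are printed, 5′ to 3′ on the plus strand, from RefSeq on GRCm38.p6.
Aox4, chr1:58210147-58210396: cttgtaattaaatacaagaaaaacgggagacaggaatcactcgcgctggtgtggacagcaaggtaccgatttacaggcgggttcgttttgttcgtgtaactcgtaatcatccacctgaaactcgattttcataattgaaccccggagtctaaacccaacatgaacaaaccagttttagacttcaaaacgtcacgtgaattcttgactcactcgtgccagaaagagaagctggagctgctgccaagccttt
Aox2, chr1:58278076-58278325: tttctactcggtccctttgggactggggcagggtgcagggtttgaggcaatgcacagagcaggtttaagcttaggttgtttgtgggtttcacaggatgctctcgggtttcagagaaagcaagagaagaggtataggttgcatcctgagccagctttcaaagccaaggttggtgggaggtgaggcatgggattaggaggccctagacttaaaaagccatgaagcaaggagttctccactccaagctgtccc
These windows were searched on both strands for GCGTG, the core that AHR and its partner ARNT are known to bind, and for TGACNNNGC, the core of the antioxidant response element. Neither window held either motif, so no base is in capitals. Promoters were given for 9 of the 10 genes, and GCGTG was found in 4 of them (Aox1, Aox3, Aldh3a2 and Aldh9a1) and TGACNNNGC in 1 (Aldh9a1). Of 32851 mouse promoter windows of the same length, 28.2% held GCGTG and 10.2% held TGACNNNGC.

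Aox2 and Aox4 had the largest differences of the 10 genes. In WT, Aox2 had 415 to 759 normalized counts (median 573), and in Ahr-/- it had 0 to 11.3 (median 1.98). In the samples labelled Ahrr-/-, it had 362 to 724 (median 465). Every WT sample and every sample labelled Ahrr-/- was therefore far above every Ahr-/- sample, and the highest Ahr-/- sample was F3. On the log2 scale, Aox2 averaged 9.28 ± 0.31 in the WT samples and 5.40 ± 0.27 in the Ahr-/- samples (mean and SD of 6). The difference was 3.88 (SE 0.15, 95% CI 3.55 to 4.21, limma adjusted p = 1.61e-10, higher in 6 of 6 WT samples). The variance-stabilized scale compresses low counts, and on log2 of the normalized count plus 1 the difference was 7.46. The ratio of the mean normalized counts was 175, and it was 364 without both F3 samples, because 12 of the 21 Aox2 counts of the Ahr-/- samples were in F3.

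Aox4 followed Aox2 closely. It had 351 to 884 normalized counts in WT (median 504), 0 to 6.6 in Ahr-/- (median 2.08) and 374 to 712 in the samples labelled Ahrr-/- (median 460). Ahr-/- again lay apart from both other groups without overlap, and the 6 Ahr-/- samples held 14 counts of Aox4 in all. The log2 means with their SD (n = 6) were 9.18 ± 0.48 for WT and 5.32 ± 0.25 for Ahr-/-, which differ by 3.86 (SE 0.19, 95% CI 3.45 to 4.27, limma adjusted p = 3.17e-09). The ratio of the mean normalized counts was 242, and 419 without both F3 samples. Aox4 and Aox2 were lower or higher together also within WT and within the samples labelled Ahrr-/-, while the counts in Ahr-/- were too few to tell. The ratio of Aox4 to Aox2 normalized counts lay between 0.763 and 1.16 in the WT samples and between 0.938 and 1.13 in the samples labelled Ahrr-/-, and in both groups it was lowest in M3 and highest in M2. In bulk RNA, fewer cells of a type that make these transcripts and less RNA per cell cannot be told apart. Both genes passed the minimum mean of the test only through the groups in which they were high.

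**Figure D1:**
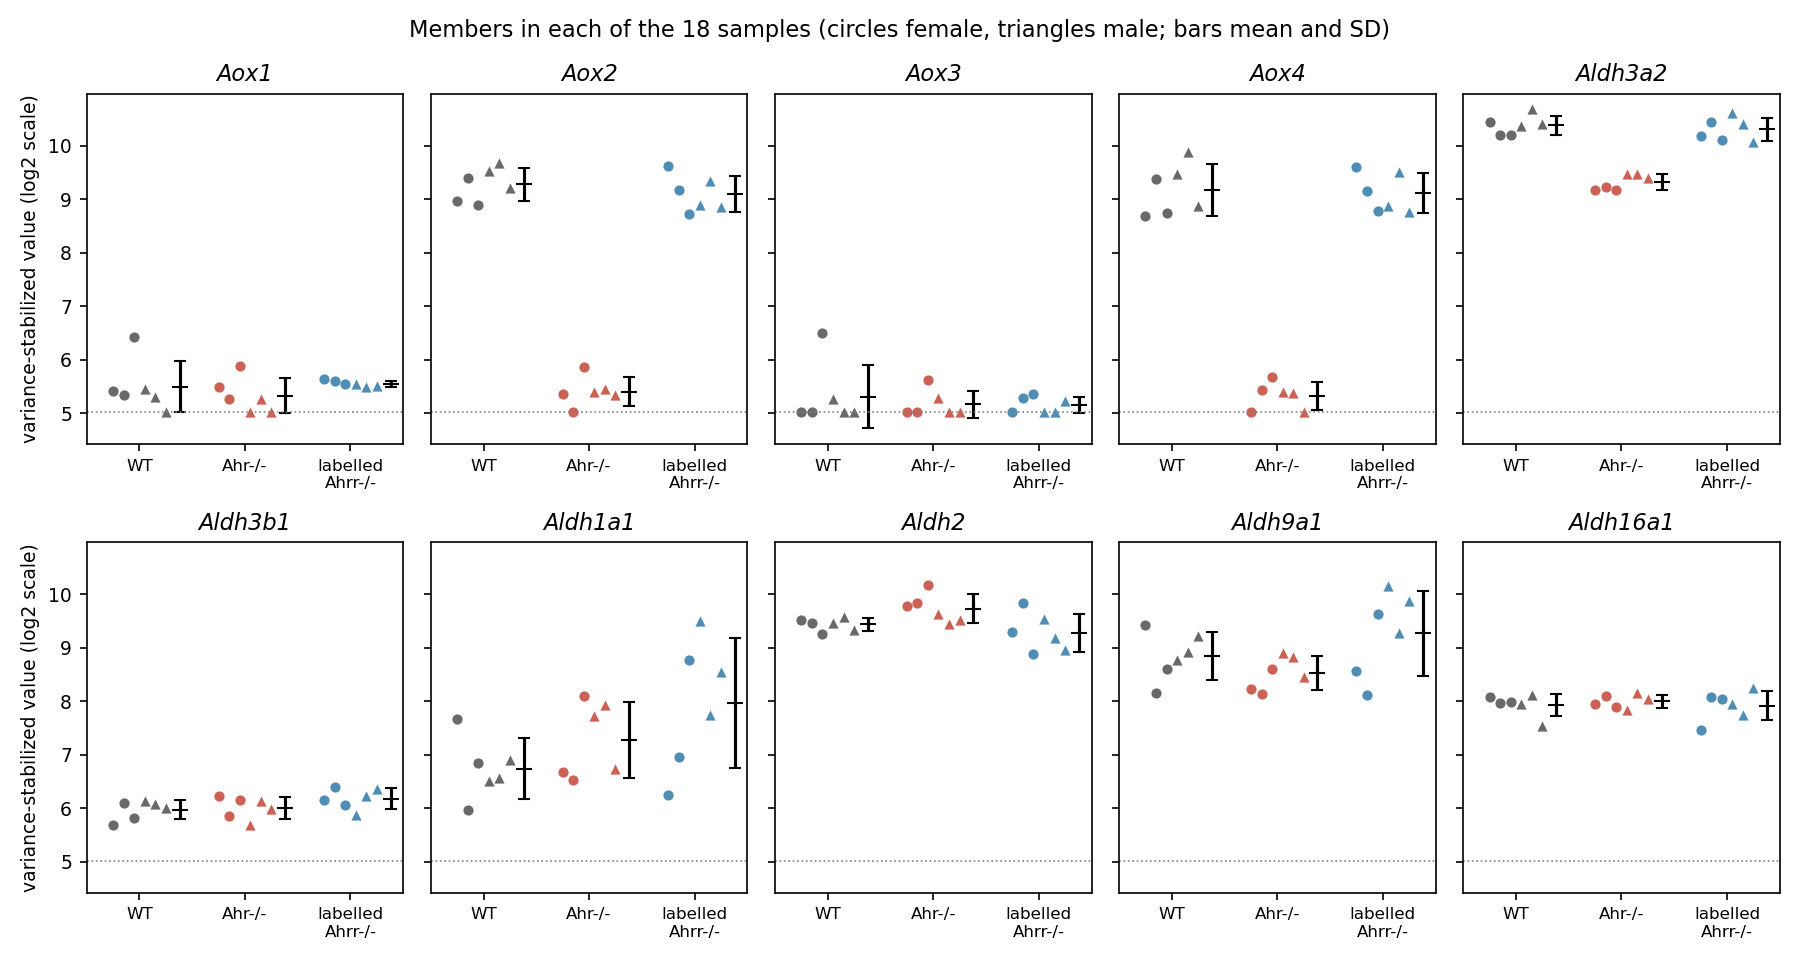
Variance-stabilized values (log2 scale) of the 10 genes in the 18 samples, by genotype, with females as circles, males as triangles, and the mean and SD of 6 samples as bars; the dotted line is the lowest value, a count of 0. Aox2 and Aox4 sit between 8.69 and 9.89 in WT and between 5.02 and 5.86 in Ahr-/-, and the Aldh3a2 values of Ahr-/- lie below those of the other groups.

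The other oxidases of the cluster were near 0. Aox1 had 76 counts over all 18 samples and Aox3 had 31. Of these, 16 counts of Aox1 and 18 of Aox3 were in WT F3, and 13 and 6 were in Ahr-/- F3. In the other 16 samples no Aox1 count was above 7 and no Aox3 count above 3, and Aox3 was at 0 in 11 of them. Their means over the 18 samples, 5.46 and 5.21, were below the minimum of 6.02 for a test, so they were left out of the test. Without a minimum mean they were tested and not called in any comparison of genotypes. Aox1 was at 0 in none of the samples labelled Ahrr-/- (3.25 to 6.14 normalized counts), and apart from F3 the WT samples had at most 3.01. Aox3 lies next to Aox4 in the cluster, and the level of its neighbor was not shared.

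Aldh3a2, the microsomal enzyme that oxidizes long-chain fatty aldehydes, was lower in Ahr-/- but stayed well expressed. The gene lies on the minus strand at chr11:61223417-61267464, with up to 10 exons. Its window is shown because, of the 3 genes that differed between WT and Ahr-/-, only this one held GCGTG (capitals), on the strand of the gene and starting 117 bases before the start of the transcript. The sequence is from RefSeq, GRCm38.p6, minus strand, and part of it is also the first exon of noncoding transcripts in the GENCODE annotation.
Aldh3a2, chr11:61267187-61267436: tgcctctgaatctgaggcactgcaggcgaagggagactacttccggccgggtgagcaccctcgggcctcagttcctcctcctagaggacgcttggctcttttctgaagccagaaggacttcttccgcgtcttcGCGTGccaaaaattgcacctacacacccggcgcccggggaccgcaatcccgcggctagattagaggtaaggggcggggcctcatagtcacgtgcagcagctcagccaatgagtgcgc
A match of 5 letters describes the sequence and is no evidence of binding.
In WT, Aldh3a2 had 1113 to 1581 normalized counts (median 1270), in Ahr-/- 512 to 648 (median 573), and in the samples labelled Ahrr-/- 1010 to 1503 (median 1201). The highest Ahr-/- sample thus stayed below the lowest sample of both other groups, while WT and the samples labelled Ahrr-/- overlapped over most of their range. The log2 means with their SD (n = 6) were 10.38 ± 0.18 for WT and 9.32 ± 0.15 for Ahr-/-, which differ by 1.06 (SE 0.09, 95% CI 0.87 to 1.25, limma adjusted p = 1.1e-06). The mean normalized count was 2.21 times as high in WT as in Ahr-/-, and 2.22 times without both F3 samples.

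Between WT and Ahr-/-, 3 of the 7 tested genes (Aox2, Aox4 and Aldh3a2) passed a limma adjusted p of 0.05, against 8.84% of the 11346 genes tested. All 3 were higher in WT, as were 3.68% of all tested genes. The same 3 were also the ones whose groups did not overlap, against 4.51% of all genes tested. By size of the difference toward WT on the variance-stabilized scale, Aox2 ranked 4, Aox4 ranked 5 and Aldh3a2 ranked 82 of 11346. The other 4 tested genes did not pass, and Aox1, Aox3 and Aldh3b1 were below the minimum mean.

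Of the 4 that did not pass, Aldh2, the mitochondrial enzyme known for acetaldehyde, varied least of the 10 genes in WT (coefficient of variation of normalized counts 0.0868). It had 551 to 699 normalized counts in WT (median 643), 636 to 1096 in Ahr-/- (median 775) and 411 to 844 in the samples labelled Ahrr-/- (median 541). The groups overlapped, and the highest value was in Ahr-/- F3. WT minus Ahr-/- was -0.30 (SE 0.11, 95% CI -0.53 to -0.06, limma adjusted p = 0.115), and -0.17 without both F3 samples (adjusted p = 0.349). Aldh16a1, a family member whose function is less settled, had 127 to 216 normalized counts in WT, 169 to 222 in Ahr-/- and 117 to 242 in the samples labelled Ahrr-/-. Its difference between WT and Ahr-/- was -0.06 (SE 0.11, 95% CI -0.30 to 0.18, limma adjusted p = 0.802), and it went from -0.10 without WT M2 to 0.02 without WT M3. Aldh3b1, which acts on aldehydes from lipid peroxidation, was low throughout, with 7.12 to 20.1, 6.83 to 24.3 and 11.7 to 32.2 normalized counts in WT, Ahr-/- and the samples labelled Ahrr-/-.

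Aldh1a1 and Aldh9a1 varied widely within genotypes. Aldh1a1 makes retinoic acid from retinal, and Aldh9a1 acts in carnitine synthesis. Aldh1a1 had 14.4 to 144 normalized counts in WT (median 50.4), 38.5 to 211 in Ahr-/- (median 101) and 24.6 to 661 in the samples labelled Ahrr-/- (median 232). The WT maximum was in F1, the Ahr-/- maximum in F3, and the highest samples labelled Ahrr-/- were M1, F3 and M3. Aldh9a1 had 222 to 622 in WT (median 400), 221 to 418 in Ahr-/- (median 310) and 216 to 1080 in the samples labelled Ahrr-/- (median 643). Its highest samples were again WT F1 and the samples M1, M3 and F3 labelled Ahrr-/-, and all groups overlapped. WT minus Ahr-/- was -0.54 for Aldh1a1 (SE 0.31, limma adjusted p = 0.314) and 0.32 for Aldh9a1 (SE 0.18, limma adjusted p = 0.296). Single samples moved both. Aldh1a1 went from -0.75 without WT F1 (limma adjusted p = 0.11) to -0.35 without Ahr-/- F3 (adjusted p = 0.529). Aldh9a1 went from 0.16 without WT F1 (limma adjusted p = 0.546) to 0.44 without WT F2 (adjusted p = 0.105).

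Markers of enterocytes, the absorptive cells of the gut lining that the sort gate would remove, moved with these values. All 12 markers of the list (Epcam, Vil1, Alpi, Fabp1, Fabp2, Apoa1, Apoa4, Lct, Sis, Krt20, Cdh1 and Slc5a1) had a mean above the minimum, none was at 0 in all samples, and Sis was the most abundant, with a mean of 2575 normalized counts. Their summed normalized counts in WT were 13820 in F1, 3526 in F2, 5912 in F3, 6277 in M1, 5829 in M2 and 9547 in M3. In Ahr-/- they were 3106, 2378 and 6442 in F1 to F3 and 6792, 7225 and 4664 in M1 to M3. In the samples labelled Ahrr-/- they were 4261, 3803 and 23957 in F1 to F3 and 24125, 10879 and 23952 in M1 to M3. The samples with the most of these transcripts were thus F3, M1 and M3 of the samples labelled Ahrr-/-, followed by WT F1. Limma called 0 of the 12 markers between WT and Ahr-/- (4 at an unadjusted p under 0.05, 0 by limma voom, median difference 0.36) and 0 between WT and the samples labelled Ahrr-/- (4 and 0, median -0.77). Between Ahr-/- and the samples labelled Ahrr-/- it called 4, all higher in the latter. Markers of goblet cells, which secrete mucus, were called in 5 of 6 between WT and Ahr-/-, all higher in WT, and of Paneth cells in 0 of 6 (1 at an unadjusted p under 0.05, 0 by limma voom). Between Ahr-/- and the samples labelled Ahrr-/-, 5 of 6 goblet and 6 of 6 Paneth markers were called, all higher in the latter. In samples F3, M1 and M3 labelled Ahrr-/-, summed goblet markers were 28992, 19752 and 43385 (21147 in M2). Summed Paneth markers were 19947, 68051 and 32719 there (14648 in M2), so these samples were high in more than the enterocyte list. In WT F1 the goblet and Paneth sums were 19433 and 6812.

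Markers of 8 further cell types were run as well. Between WT and Ahr-/-, limma called 2 of 10 markers of macrophages and dendritic cells and 1 of 2 of neutrophils, all higher in Ahr-/-. It called 1 of 2 of endothelial cells (Pecam1, 0.63, SE 0.10, limma adjusted p = 0.00116) and 1 of 4 of pancreatic acinar cells (all 4 at an unadjusted p under 0.05, 0 by limma voom, median difference 1.45), both higher in WT. The other endothelial marker tested, Vwf, was at -0.08 (SE 0.18, limma adjusted p = 0.831). Of the markers of fibroblasts, mast cells, T cells with innate lymphocytes, and plasma and B cells, limma and limma voom called 0 of 2, 0 of 1, 0 of 1 and 0 of 3, and 0, 0, 0 and 1 had an unadjusted p under 0.05. Between Ahr-/- and the samples labelled Ahrr-/-, limma called 2 of 3 of plasma and B cells (Jchain -3.20, SE 0.66, limma adjusted p = 0.00708), 1 of 4 of fibroblasts and 1 of 5 of endothelial cells, all higher in the latter. Of macrophages and dendritic cells it called 2 of 11, 1 in each direction. In these 4 lists limma voom called 2 plasma and B cell, 0 fibroblast, 2 endothelial and 1 macrophage and dendritic marker. Limma called 0 of 2 of neutrophils, 0 of 1 of mast cells, 0 of 1 of T cells and 0 of 1 of acinar cells, as did limma voom, and 0, 0, 1 and 0 had an unadjusted p under 0.05. Between WT and the samples labelled Ahrr-/-, limma and limma voom called 0 markers of any cell type, while at an unadjusted p under 0.05 there were 6 of 6 Paneth, 0 of 6 goblet, 3 of 11 macrophage and dendritic, 3 of 4 fibroblast, 2 of 6 endothelial, 1 of 2 neutrophil, 0 of 1 mast cell, 0 of 1 T cell, 3 of 3 plasma and B cell, and 2 of 5 acinar markers. For all marker lists, eosinophils included, the share to compare is that over all genes tested. Limma called 8.84% of genes between WT and Ahr-/-, 0.0779% between WT and the samples labelled Ahrr-/-, and 14.9% between Ahr-/- and the latter. In the last comparison, macrophage and dendritic (18.2%), endothelial (20%) and fibroblast markers (25%) are lists too short to set apart from that share. Some transcripts named for other cells thus differed between genotypes, and which cells they came from was not tested.

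The 5 expressed genes not called between WT and Ahr-/- were set against the mean log2 value of the enterocyte markers over the 18 samples, with 100000 permutations and Benjamini-Hochberg (BH) adjustment over the 5. Aldh9a1 rose with the markers (Pearson r = 0.95, permutation p = 2e-05, the smallest the permutations can give, BH 0.0001; Spearman rho = 0.93, permutation p = 2e-05, BH 0.0001). Aldh1a1 did so as well (r = 0.90, permutation p = 4e-05, BH 0.0001; rho = 0.86, permutation p = 4e-05, BH 0.0001). Without the pair of samples farthest from the median of the markers, r was 0.94 for Aldh9a1 and 0.83 for Aldh1a1. Within WT, Ahr-/- and the samples labelled Ahrr-/-, r was 0.94, 0.92 and 0.94 for Aldh9a1 and 0.95, 0.90 and 0.95 for Aldh1a1, over 6 samples each. Aldh2 ran the other way (r = -0.53, permutation p = 0.0213, BH 0.0356; rho = -0.43, permutation p = 0.0802, BH 0.134), and within WT, Ahr-/- and the samples labelled Ahrr-/- its r was 0.05, -0.06 and -0.57. Aldh16a1 (r = 0.16, permutation p = 0.557, BH 0.696; rho = -0.01, permutation p = 0.972, BH 0.972) and Aldh3b1 (r = -0.09, permutation p = 0.703, BH 0.703; rho = -0.13, permutation p = 0.6, BH 0.75) did not pass over the 18 samples. Within WT, Ahr-/- and the samples labelled Ahrr-/-, r was -0.13, -0.37 and 0.57 for Aldh16a1 and -0.75, -0.02 and -0.49 for Aldh3b1, over 6 samples each and not tested. An r over all 18 samples also takes in differences between genotypes, as for Aldh2, whose r was 0.05 within WT and -0.06 within Ahr-/-. Only the enterocyte list was set against these genes, though goblet and Paneth markers were high in some of the same samples. The source of the Aldh1a1 and Aldh9a1 transcripts was not tested.

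**Figure D2:**
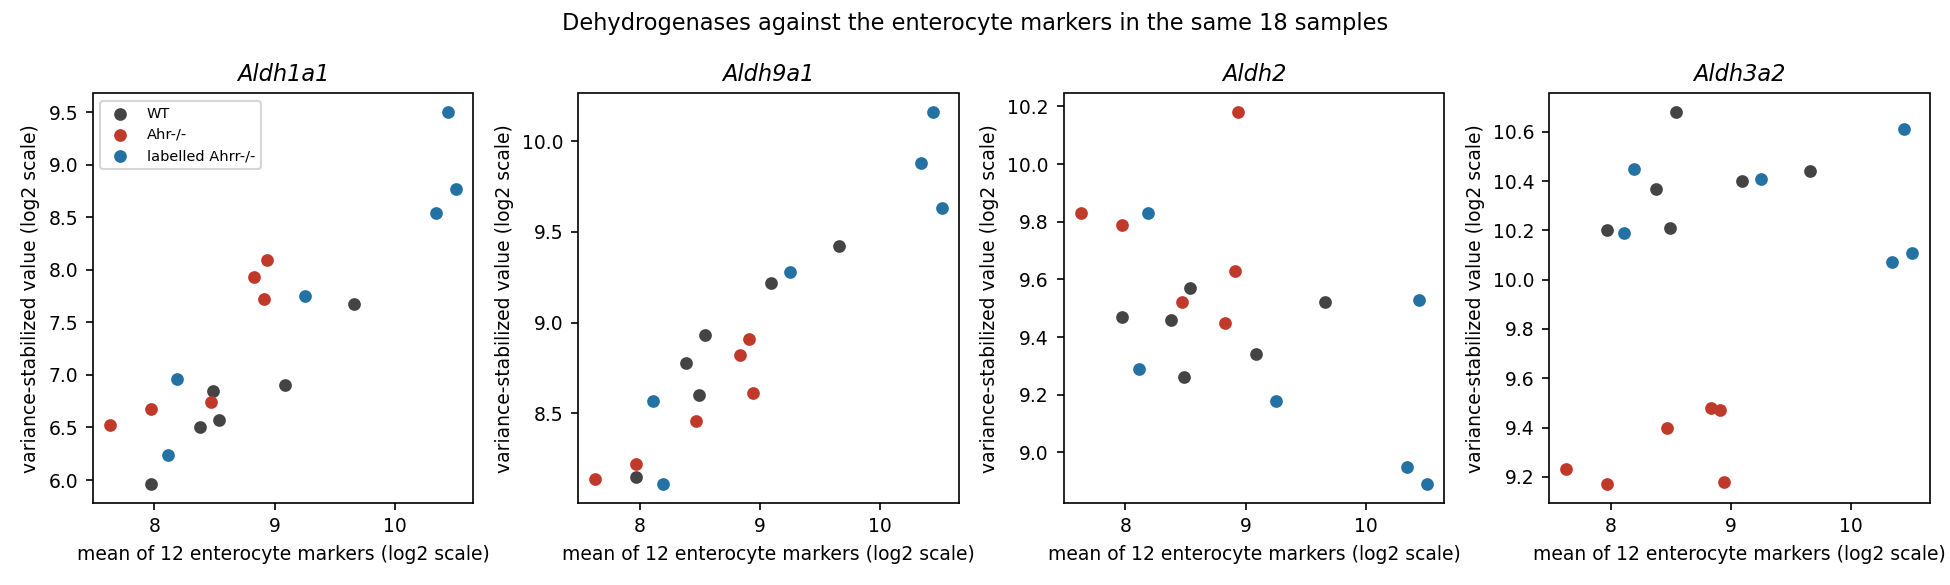
Variance-stabilized values of 4 dehydrogenases (vertical axis, log2 scale) against the mean of the 12 enterocyte markers (horizontal axis, log2 scale), with 1 point for each of the 18 samples, colored by genotype. Aldh1a1 and Aldh9a1 rise along the axis in every genotype, whereas Aldh3a2 lies between 9.17 and 9.48 in Ahr-/- and between 10.07 and 10.68 elsewhere at any level of the markers.

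When the mean of the enterocyte markers was added to the model, a choice made after the data were seen, the differences of Aox2 (3.88), Aox4 (3.91) and Aldh3a2 (1.05) between WT and Ahr-/- were as large as without it. Aldh1a1, in contrast, then differed, with WT minus Ahr-/- at -0.78 (limma adjusted p = 0.00128). Over all other alternatives its adjusted p was between 0.11 and 0.594, and without the markers in the model it did not pass. This model held only the enterocyte list, of which limma called 0 of 12 between WT and Ahr-/-. The goblet cell list, called in 5 of 6, was not added, and the source of the transcripts was not tested.

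WT did not differ detectably from the samples labelled Ahrr-/- in these genes. Of 8 tested genes 0 were called by limma, against 0.0779% of 11546 genes. At an unadjusted p under 0.05 there was 1, Aldh1a1, and limma voom on the counts also called 0. The mean of Aox2 was 9.28 in WT and 9.10 in the samples labelled Ahrr-/- (difference 0.18, 95% CI -0.21 to 0.56, limma adjusted p = 0.766). Aox4 differed by 0.06 (95% CI -0.41 to 0.53, limma adjusted p = 0.941) and Aldh3a2 by 0.08 (95% CI -0.21 to 0.36, limma adjusted p = 0.865). These small differences moved with single samples, for Aox2 from 0.10 (without WT M2) to 0.31 (without F1 labelled Ahrr-/-), for Aox4 from -0.08 to 0.19 (without the same samples), and for Aldh3a2 from 0.00 to 0.13 (without M3 or M1 labelled Ahrr-/-). With the enterocyte markers in the model, Aox2 changed sign to -0.07 and Aox4 to -0.24, and Aldh3a2 was at 0.05. None was called in any of these fits. For Aldh1a1 the difference was -1.22 (SE 0.44, 95% CI -2.16 to -0.27, limma adjusted p = 0.603), and the samples highest in Aldh1a1 were also highest in enterocyte markers. It was -0.43 with those markers in the model.

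Ahr-/- against the samples labelled Ahrr-/- gave 4 called genes of 8 tested, against 14.9% of 11474 genes, and all 4 were higher in the samples labelled Ahrr-/-, as were 8.04% of all genes. This comparison shares samples with each of the others. In 3 of them (Aox2, Aox4 and Aldh3a2) the groups did not overlap, against 4.61% of all genes. Ahr-/- minus Ahrr-/- was -3.70 for Aox2 (SE 0.17, limma adjusted p = 2.29e-09), -3.80 for Aox4 (SE 0.17, limma adjusted p = 2.29e-09) and -0.99 for Aldh3a2 (SE 0.11, limma adjusted p = 7.31e-05). The mean normalized counts were 153, 226 and 2.1 times as high in the samples labelled Ahrr-/- as in Ahr-/-, and 302, 368 and 2.06 times without Ahr-/- F3.

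The fourth gene, Aldh9a1, was at the threshold, with a difference of -0.74 (SE 0.23, 95% CI -1.24 to -0.25, limma adjusted p = 0.0459). The call was lost without Ahr-/- F1, F2, M1, M2 or M3 and without F3, M1 or M3 of the samples labelled Ahrr-/- (-0.755 to -0.587, adjusted p 0.079 to 0.112). It was also lost without a minimum mean (adjusted p = 0.153), without the sex covariate (0.116) and with the enterocyte markers in the model (-0.18, adjusted p = 0.621). Aldh2 was 0.46 higher in Ahr-/- (SE 0.16, 95% CI 0.12 to 0.79, limma adjusted p = 0.0646). It passed without sample F2 (0.55, adjusted p = 0.0239) or M1 (0.54, adjusted p = 0.0379) of those labelled Ahrr-/-, after median centering (adjusted p = 0.0467) and in the fit of all 18 samples (adjusted p = 0.0425).

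**Figure D3:**
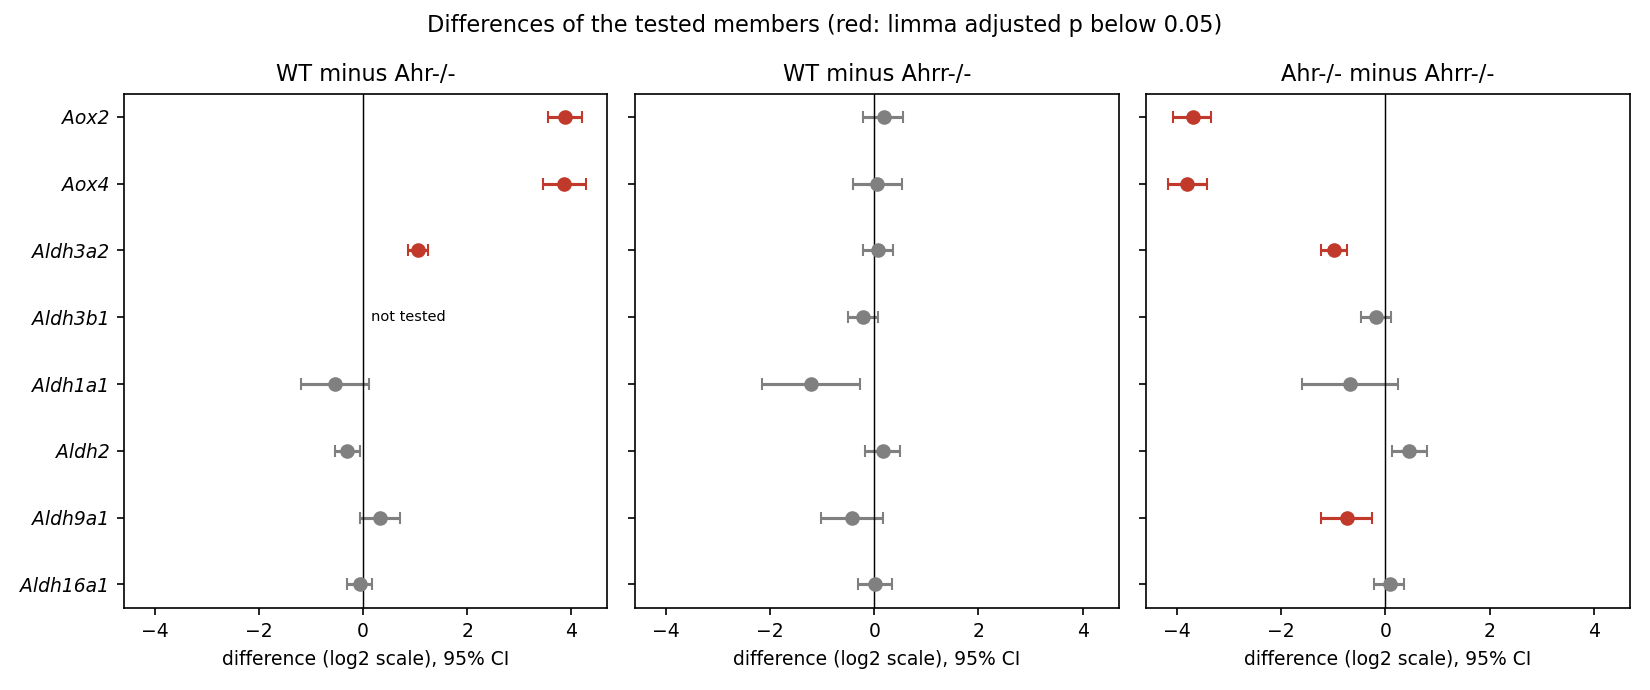
Differences on the log2 scale (horizontal axis) with 95% confidence intervals for the tested genes in the comparisons of WT, Ahr-/- and the samples labelled Ahrr-/-, red where the limma adjusted p was below 0.05. Aox2 and Aox4 lie at 3.88 and 3.86 in WT minus Ahr-/- and at 0.18 and 0.06 in WT minus Ahrr-/-, and Aldh1a1 has the widest intervals.

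The sexes did not differ in these genes at the threshold. Between 9 male and 9 female samples, with genotype in the model, limma called 0 of 8 tested genes, against 3.06% of 11468 genes. At an unadjusted p under 0.05 there were 2, Aldh9a1 (male minus female 0.55, SE 0.20, limma adjusted p = 0.136) and Aldh3a2 (0.19, SE 0.09, limma adjusted p = 0.242), and limma voom called 0. Without WT F1, the WT sample with the most enterocyte marker transcripts, Aldh9a1 passed (0.67, SE 0.18, limma adjusted p = 0.032). No tested gene passed for an interaction of sex with genotype between WT and Ahr-/- (0 of 11346, 0% called by limma), and thus 0 of the 7 genes here. At an unadjusted p under 0.05 there was 1, Aldh2 (difference of differences 0.44, SE 0.20, limma adjusted p = 0.954), and limma voom called 0.

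The table holds 14 other genes within 500 kb of the Aox cluster, and 12 of them were tested between WT and Ahr-/-. Limma called 0 of the 12, against 8.84% of all genes, at which about 1 call would fall among 12. Of the 12, 1 had an unadjusted p under 0.05, and limma voom called 0. Their differences lay between -0.25 (Flacc1) and 0.27 (Bzw1), with a median of -0.00, as in all genes tested (0.00). Bzw1, the first gene beyond Aox2, had a mean of 1306 normalized counts in WT and 1061 in Ahr-/- (0.27, 95% CI -0.00 to 0.53, limma adjusted p = 0.216). Kctd18, on the side of Aox1, had 369 and 372 (-0.03, 95% CI -0.27 to 0.22, limma adjusted p = 0.923). The 2 untested neighbors lie on that side too and had fewer normalized counts in Ahr-/- on average. Sgo2a, the nearest, had 21.8 in WT and 12.8 in Ahr-/-, and Spats2l had 25.7 and 8.92, so for these low genes a difference was not tested. Between Ahr-/- and the samples labelled Ahrr-/-, 1 of 13 tested neighbors was called, against 14.9% of all genes. It was Bzw1 (-0.57, SE 0.13, limma adjusted p = 0.0123).

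**Figure D4:**
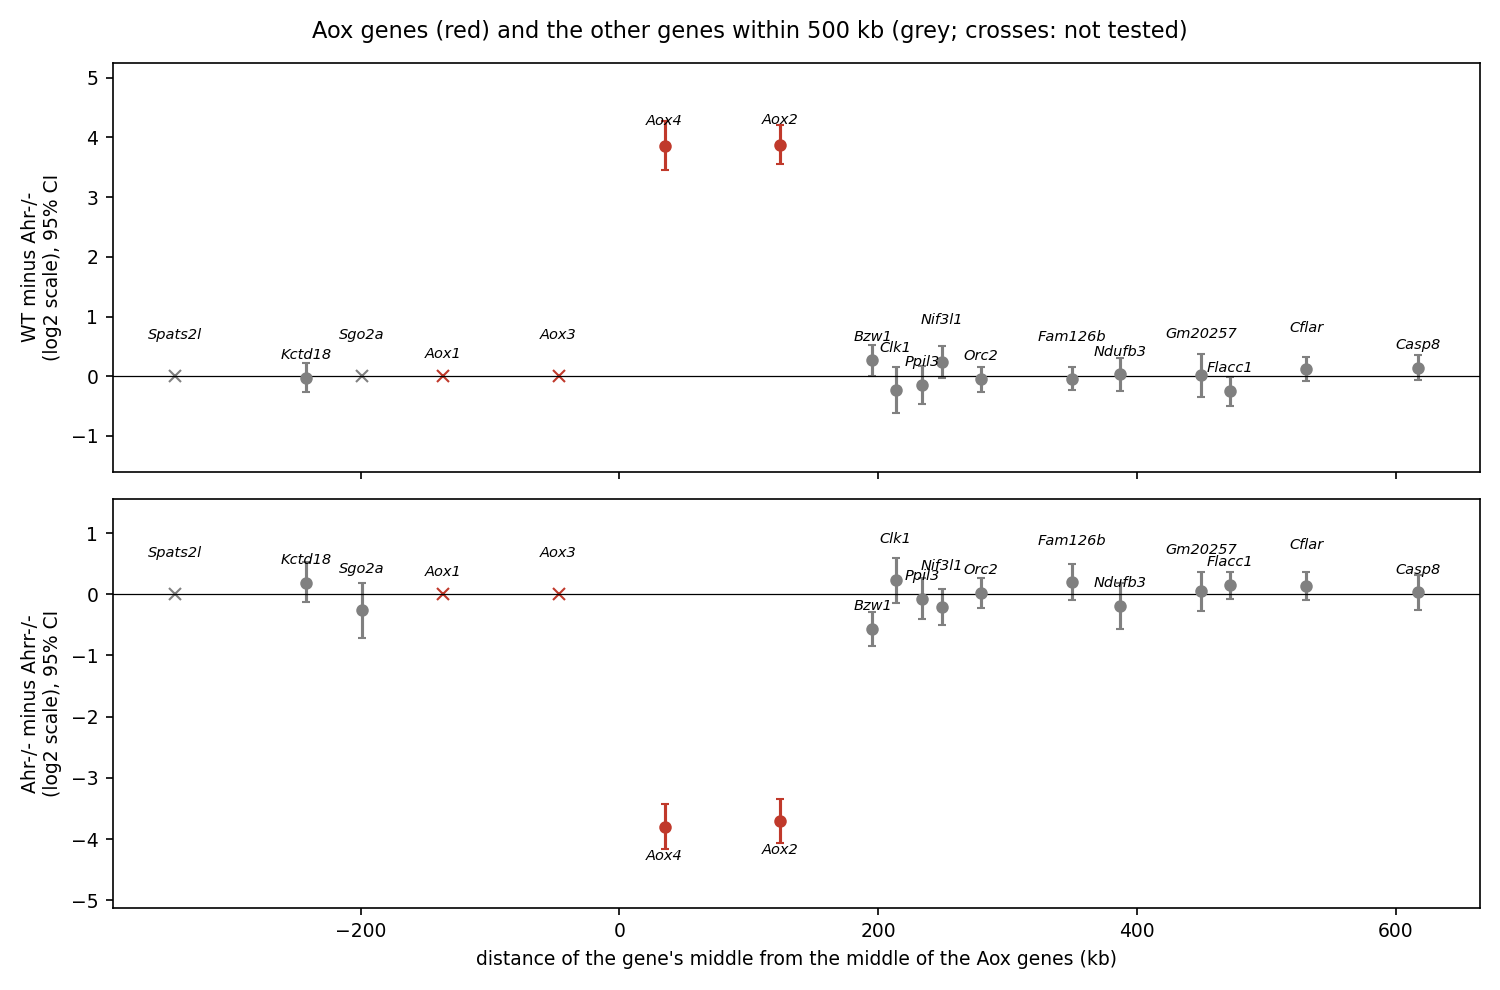
Differences on the log2 scale with 95% confidence intervals (vertical axis) for the Aox genes in red and the other genes within 500 kb in grey, in WT minus Ahr-/- (top) and Ahr-/- minus Ahrr-/- (bottom), by distance from the middle of the cluster in kb; crosses at 0 mark genes that were not tested. Only Aox2 and Aox4 stand away from 0 by more than 1.

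Levels of different genes were compared as normalized counts per kb of exon. In WT, Aldh3a2 was highest (241 ± 32.3, SD, n = 6), followed by Aldh2 (152 ± 13.2), Aldh9a1 (147 ± 50.6), Aox4 (109 ± 42) and Aox2 (99.1 ± 23.4). Aldh16a1 (48 ± 8.14), Aldh1a1 (25 ± 18.6) and Aldh3b1 (7.81 ± 2.71) came next, and Aox1 (1.56 ± 2.91) and Aox3 (1.17 ± 2.78) were last, with means that rest on F3, which held 16 of the 23 Aox1 counts and 18 of the 19 Aox3 counts of WT. In every WT sample Aldh3a2 lay above Aldh2, and Aox2 above Aldh16a1, whereas Aldh2, Aldh9a1, Aox4 and Aox2 overlapped each with the next. In Ahr-/- the order was led by Aldh2 (193 ± 40.1), Aldh9a1 (111 ± 28.2) and Aldh3a2 (109 ± 12.2), and Aox2 (0.566 ± 0.702) and Aox4 (0.453 ± 0.488) had joined Aox1 (0.658 ± 1.07) and Aox3 (0.208 ± 0.416) at the bottom. The order among these 4 is not drawn on, since F3 held most of the Aox1, Aox2 and Aox3 counts and 7 of the 14 Aox4 counts.

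**Figure D5:**
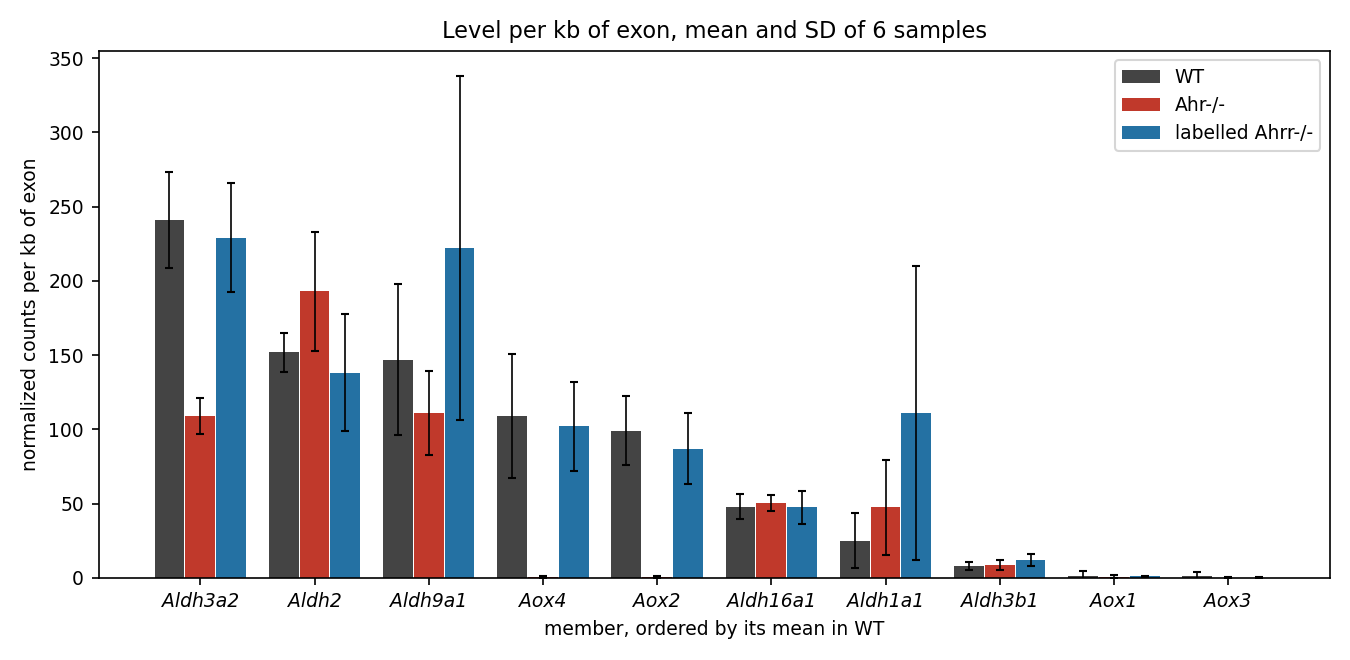
Normalized counts per kb of exon (vertical axis) of the 10 genes, ordered by their WT mean, as bars of the mean with the SD of 6 samples in WT, Ahr-/- and the samples labelled Ahrr-/-. Aox4 and Aox2 reach 109 and 99.1 in WT and have no visible bar in Ahr-/-.

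Over the 18 samples, the genes whose values ran most like Aox2 were Aox4 (Pearson r = 0.995), Ahrr (0.991) and Clec4a4 (0.987), a lectin receptor gene, among 11468 genes compared. For Aox4 they were Aox2 (0.995), Ahrr (0.989) and Clec4a4 (0.978). Nqo1 (0.952), Asb2 (0.948) and Aox2 (0.944) ran most like Aldh3a2. These samples form a high and a low group by genotype, and r describes that split more than the variation within groups.

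Reads of at least 75 bases could in part fit more than 1 gene. Of all windows of 75 bases in the annotated transcripts of Aox2, Aox3, Aldh3a2 and Aldh9a1, 0 were also in a transcript of another gene on either strand. No window was shared between oxidases, whose coding sequences were 65.7% to 68.4% identical (68.4% for Aox2 and Aox4 over 3984 aligned bases). Of the 8324 windows of Aox4, 278 (3.34%) were shared with Gm15759, an antisense gene that overlaps it, and whether strand was used in counting is not given in the sources used here. Shares were 2.89% for Aldh3b1 (with Aldh3b2 and Aldh3b3), 1.3% for Aldh16a1 (with Pih1d1), 1.07% for Aldh2 (with Gm42879), 1.01% for Aldh1a1 (with Aldh1a7) and 0.0786% for Aox1. Counts of these genes are uncertain to that extent.

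Of 15 other aldehyde dehydrogenases measured, 8 were tested, and 7 of the 8 were higher in WT than in Ahr-/- on average. Limma called 0 of 8 between WT and Ahr-/-, against 8.84% of all genes (2 at an unadjusted p under 0.05, and 0 by limma voom), with a median difference of 0.22 against 0.00 over all genes. The one with the highest mean level over the 18 samples was Aldh1b1, a mitochondrial enzyme, at 131 normalized counts per kb. Its mean was 309 normalized counts in WT, 192 in Ahr-/- and 404 in the samples labelled Ahrr-/-. Within Ahr-/- it was not the highest of the list per kb. Between Ahr-/- and the samples labelled Ahrr-/-, 2 of 8 (25%) were called, against 14.9% of all genes, both higher in the latter, as were 8.04% of all genes, with a median difference of -0.34. They were Aldh1b1 (-0.82, SE 0.24, limma adjusted p = 0.0348) and Aldh1l1, a folate enzyme (-0.82, SE 0.22, limma adjusted p = 0.0256). Aldh1b1 was highest in WT F1 (718 normalized counts) and in M3 of the samples labelled Ahrr-/- (661), which were both high in enterocyte markers, whose part in this result was not tested.

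The aldehyde oxidases depend on the molybdenum cofactor. Of 10 genes of this list, which includes other enzymes with that cofactor, 8 were tested and limma called 0 between WT and Ahr-/-, against 8.84% of all genes (1 at an unadjusted p under 0.05, and 0 by limma voom), with a median difference of 0.14. Mocs3, a gene of cofactor synthesis, was near 0 (46 counts over 18 samples) and was not tested, nor was Mtarc1. Mocs1, which acts in the first step, had the highest level (199 per kb) among the genes of the list with a known exon length, which Mtarc1 and Mtarc2 lacked, and differed by 0.13 (SE 0.10, limma adjusted p = 0.479). Mocos, which adds the sulfur that the oxidases need and was singled out after its values were seen, had a mean of 111 normalized counts in both WT (SD 21.8) and Ahr-/- (SD 20.6), with a difference of 0.00 (SE 0.12, limma adjusted p = 0.996). Xdh, the xanthine dehydrogenase related to the oxidases, was the 1 of 8 (12.5%) called between Ahr-/- and the samples labelled Ahrr-/- (-0.88, SE 0.22, limma adjusted p = 0.0204), against 14.9% of all genes. The median difference of the 8 was -0.09 there, and 0.00 over all genes.

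Of 16 aldehyde and carbonyl reductases, which remove aldehydes by reduction, 9 were tested and 1 (11.1%) was called between WT and Ahr-/- by limma, against 8.84% of all genes, with a median difference of 0.06. It was Akr1b10, at a mean of 84.2 normalized counts in WT and 134 in Ahr-/- (-0.42, SE 0.12, limma adjusted p = 0.0365). Akr1a1 had the highest level (763 per kb). Between Ahr-/- and the samples labelled Ahrr-/-, 2 of 9 (22.2%) were called, against 14.9% of all genes, Akr1b10 higher in Ahr-/- (0.59, SE 0.16, limma adjusted p = 0.0241) and Akr1c14 lower (-0.90, SE 0.20, limma adjusted p = 0.00958), with a median of -0.33.

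In the retinoid pathway 21 of 30 genes were tested and 3 (14.3%) were called between WT and Ahr-/-, against 8.84% of all genes, with a median difference of -0.11. Rara, a receptor for retinoic acid, was higher in WT, at a mean of 574 against 299 normalized counts (0.84, SE 0.14, limma adjusted p = 0.00123) and without overlap. Dhrs3, which turns retinal back to retinol, was higher in Ahr-/- (99.5 against 186 normalized counts; -0.69, SE 0.17, limma adjusted p = 0.0173), as was Rxra, the partner of retinoic acid receptors (-0.38, SE 0.11, limma adjusted p = 0.04). Rbp2, a retinol carrier of enterocytes, had the highest mean level over the 18 samples, at 156 per kb with a range of 30.2 to 538. Its mean was 57.1 normalized counts in WT, 110 in Ahr-/- and 213 in the samples labelled Ahrr-/-. Within WT and within Ahr-/- it was not the highest of the list per kb. Rara (-0.91, SE 0.17, limma adjusted p = 0.00379) and Lrat, which stores retinol as esters (-0.60, SE 0.17, limma adjusted p = 0.0331), were the 2 of 21 (9.52%) called between Ahr-/- and the samples labelled Ahrr-/-, against 14.9% of all genes, both lower in Ahr-/-, with a median of -0.03.

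Between WT and the samples labelled Ahrr-/-, limma and limma voom called 0 genes in each of these lists, where limma called 0.0779% of all genes. The counts at an unadjusted p under 0.05 were 0 of 8 other aldehyde dehydrogenases, 0 of 8 genes of the molybdenum list, 1 of 9 reductases and 4 of 21 retinoid genes. The median differences were -0.20, -0.11, -0.16 and -0.07, against -0.01 over all genes tested.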

How the data were processed

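RNA of 18 samples was sequenced as cDNA with single reads. Per the submitters' processing notes, reads were aligned to GRCm38 with STAR 2.5.2 and quantified with RSEM 1.3.0, and DESeq2 in R 4.0.3 was used. The authors deposited 1 table of variance-stabilized values, which are log2 values. The transformation was inverted, and 100% of the values gave whole counts (tolerance 0.0001). Gene symbols are those of the table.

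Differences were tested on the deposited values with limma 3.58.1 (trend, R 4.3.3) in 12 samples per pair of genotypes, with sex as a covariate, for genes with a mean no less than 1 over the lowest value. A gene was called at an adjusted p (Benjamini-Hochberg, over all genes tested) below 0.05. Sex was tested over 18 samples with genotype as a covariate. Groups did not overlap where every value of 1 exceeded every value of the other. The genes and the lists of other aldehyde dehydrogenases, molybdenum cofactor genes, reductases, retinoid genes and markers of 12 cell types were chosen with earlier results of these data known. Named are all 10 genes, Ahr, Ahrr, 4 AHR targets, and from each list of enzymes the genes called and the one highest per kb in the mean of the 18 samples. Other genes of lists, such as Mocos and Prg2, were named after their values were seen. Gene models came from GENCODE vM21. Tables and figures used Python 3.11.15, numpy 2.4.6, pandas 2.3.3, scipy 1.17.1, Biopython 1.88 and matplotlib 3.10.9. The tests were first tested on simulated data. Median total counts were 6022409 in WT, 9647589 in Ahr-/- and 10371556 in the samples labelled Ahrr-/-. Alternatives changed the minimum mean, scaling, scale, test, trend, samples, covariate and block. Proteins were not used.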

Additional observations from a re-analysis of the deposited data

Results flagged for a closer look

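In each of the 10 genes and 3 genotypes, the gap between the most extreme sample and its neighbor was set against the range of the 6 samples. Of 30 groups tested 3 were found, and chance alone gives about 1 in 20. Aox1 in WT was highest in F3, at 6.42 (16 counts), against 5.02 to 5.46 in the other samples, a gap of 0.69 of the range. Aox3 in WT was also highest in F3, at 6.50 (18 counts), against 5.02 to 5.27, a gap of 0.83 of the range. Aldh16a1 in WT was lowest in M3, at 7.54 (106 counts), against 7.95 to 8.11, a gap of 0.71 of the range. The cause was not tested.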

How the results depend on the processing

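The differences of Aox2, Aox4 and Aldh3a2 between WT and Ahr-/- kept their direction and their call under 23, 23 and 24 alternatives, at 3.81 to 7.85, 3.72 to 8.24 and 1.02 to 1.14. The largest values of Aox2 and Aox4 came from log2 scales that do not compress low counts. Between Ahr-/- and the samples labelled Ahrr-/-, the alternatives gave -7.65 to -3.6 for Aox2, -8.17 to -3.7 for Aox4 and -1.07 to -0.925 for Aldh3a2. With a minimum mean of 3 above the lowest value, only 3 genes were tested in each comparison of Ahr-/-, and 1 was called against WT and 2 against the samples labelled Ahrr-/-, because genes low in a group leave the test. Of all genes tested at that minimum, 673 of 5323 were called against WT and 828 of 5372 against the samples labelled Ahrr-/-. Leaving out each sample in turn gave 0 to 1 called genes between the sexes. Aldh9a1 between Ahr-/- and the samples labelled Ahrr-/- kept its call under 13 of 24 alternatives (-0.923 to -0.179, adjusted p 0.00879 to 0.621).

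The replicate block left the called genes at 3, 0 and 4 in the comparisons of WT with Ahr-/-, WT with the samples labelled Ahrr-/-, and Ahr-/- with these. Samples of the same number correlated at -0.59 to 0.48, so the numbers do not pair the samples. Chosen after seeing the data, the fit without both F3 samples gave the same counts, 3, 0 and 4, and the enterocyte covariate gave 4, 0 and 3. Of all genes, the main fit called 1003 of 11346 between WT and Ahr-/-. There the block called 918 of 11346, the fit without both F3 samples 586 of 11271 and the covariate 1571 of 11346. Between WT and the samples labelled Ahrr-/- the main fit called 9 of 11546, and these 3 fits called 4 of 11546, 6 of 11509 and 16 of 11546.

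WT samples have the lowest median depth, though the ranges of depth overlap with Ahr-/-, and genes near a count of 0, such as Aox1 and Aox3, are measured poorly. Bulk RNA does not assign a transcript to a cell. The sorted cells carried transcripts listed as markers of other gut cells, and their source was not tested. Genotype cannot be told apart from litter and cage, and no batch is given. Transcript levels do not measure enzyme activity.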
